A study of Mus with 15 samples.

Results

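The acute phase protein genes described here are the 9 mouse genes Saa1, Saa2, Saa3, Orm1, Hp, Lcn2, Serpina3n, Ptx3 and Lrg1, found by symbol among 55471 genes of a count matrix of adipose tissue. The genes were chosen by their function and with their measured levels in these 3 groups in view, so their values are given as a description, without a test. All 9 were among the 16051 genes with enough counts to be tested. The groups were control adipose tissue, day 3 grafts and day 7 grafts of fat, with 5 samples each, all from wild type C57BL/6 mice aged 7 weeks. The labels name neither the depot, the place of grafting, the donor and recipient, nor whether samples came from separate animals, so errors and p-values measure the spread between these samples. By its title the study concerned a shift of grafted fat towards glycolysis.

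Acute phase proteins are secreted proteins whose levels in blood change within hours to days of injury or infection. Interleukin 6 and its relatives, acting through STAT3 and C/EBP factors, and interleukin 1, acting through NF-kB, switch on most of these genes, and glucocorticoids add to the response. The liver is the main source, but adipocytes, macrophages and stromal cells also make some of them, and in mice Saa3 is known as the serum amyloid A gene of tissues other than liver.

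The 9 genes lie at 7 places in the genome (mm10 coordinates from the matrix). Saa3 (ENSMUSG00000040026, chr7:46711998-46715700, minus strand), Saa1 (ENSMUSG00000074115, chr7:46740497-46742980, minus strand) and Saa2 (ENSMUSG00000057465, chr7:46751790-46754313, plus strand) sit within 42.3 kb, with Saa4 between Saa3 and Saa1. The others are Orm1 (ENSMUSG00000039196) at chr4:63344560-63348163, Hp (ENSMUSG00000031722) at chr8:109575128-109579172 and Lcn2 (ENSMUSG00000026822) at chr2:32384633-32388252. Serpina3n (ENSMUSG00000021091) lies at chr12:104406729-104414329, Ptx3 (ENSMUSG00000027832) at chr3:66219910-66225805 and Lrg1 (ENSMUSG00000037095) at chr17:56119678-56122001. All are annotated as protein coding, 7 as proteins of the extracellular space and 5 as part of the acute phase response. The other 2, Serpina3n and Lrg1, carry no terms of this kind in the matrix. Orm1 and Lcn2 share the lipocalin family entry PF00061, the 3 Saa genes share PF00277, Hp carries the trypsin entry PF00089 and Ptx3 the pentraxin entry PF00354. Saa1 and Saa2, Orm1 and its copies Orm2 and Orm3, and the Serpina3 cluster are near-identical enough that reads can be shared out wrongly between them.

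Total estimated counts were 17.1 to 32 M per sample. Levels below are CPM (counts scaled to library size) unless TPM, the deposited level per transcript length, is named. Control 5 stood apart from the other controls: it was the highest control for 7 of the 9 genes, and for 6 of them it held at least 5 times the mean of the other 4. Its score of 10 neutrophil markers (mean log2(CPM + 1)) was 3.47, against 1.08 to 1.56 in the other controls, its score of 8 macrophage markers was 7.48 against 5.56 to 6.25, and its Il6 level was 3.13 CPM against 0.174 to 0.253 CPM. Day 3 graft 1 had a skeletal muscle score of 4.61 against 0.432 to 0.864 in the other day 3 grafts and the lowest adipocyte score of its group. Day 7 graft 5 had a mesothelium score of 3.13 against 0.271 to 1.73 and was the highest day 7 graft for 6 of the 9 genes. B cell markers were high in control fat (scores of 4.75 to 8.34) and low in grafts (at most 1.09 at day 3 and 2.18 at day 7). T cell scores were 2.098 in control 4 and 5.658 to 6.445 in the other controls. They were at most 1.142 in day 3 grafts and 1.942 in day 7 grafts. Control 4 was the lowest control for both, and control 2 held the highest skeletal muscle score, 8.79. The part of these differences in the results was not tested. For the 9 genes other than Orm1, differences from control are also given without control 5 or without the 3 libraries that stood apart (control 5, day 3 graft 1 and day 7 graft 5). Genes of the lists below are mostly given only with all libraries in the fit.

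Saa3 and Hp were by far the most abundant of the 9 genes in grafts, and Hp was in control fat. On the TPM scale the order of the means in control fat was Hp, Orm1, Serpina3n, Saa3, Lrg1, Lcn2, Saa2, Ptx3 and Saa1, and each gene from Orm1 down overlapped the next in its sample values. In day 3 grafts it was Hp, Saa3, Serpina3n, Lcn2, Ptx3, Lrg1, Orm1, Saa1 and Saa2. In day 7 grafts it was Saa3, Hp, Serpina3n, Ptx3, Lcn2, Lrg1, Orm1, Saa1 and Saa2. Hp and Saa3 overlapped at both times, as did each neighbour in the run from Lcn2 to Orm1 at day 3, in the run from Serpina3n to Lrg1 at day 7, and Saa1 and Saa2 at day 7. Saa3 averaged 4386 ± 2669 TPM in day 3 grafts and 298 ± 568 TPM in control fat (SD, n = 5 each), and 4033 ± 2173 TPM in day 7 grafts. Among all genes of a sample, Saa3 ranked between 5 and 75 in day 3 grafts, between 10 and 141 in day 7 grafts and between 89 and 9271 in control fat.

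**Figure D1:**
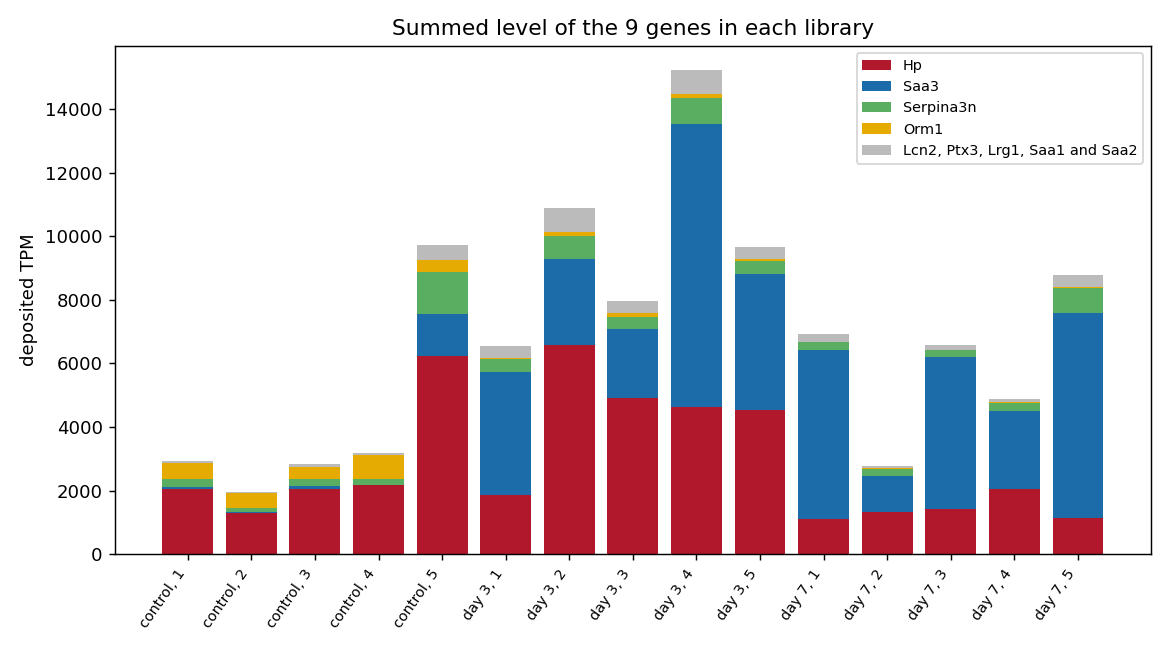
Stacked bars show the deposited TPM of Hp, Saa3, Serpina3n, Orm1 and the other 5 genes in each of the 15 libraries (control, day 3 grafts and day 7 grafts, samples 1 to 5). Saa3 made up 24.9 to 59.2% of the summed level in day 3 grafts, 41.2 to 77.0% in day 7 grafts and 0.320 to 13.5% in control fat, where control 5 had the tallest bar of the 5 controls.

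The 9 genes together took 0.309 to 0.779% of all counts in day 3 grafts, against 0.177 to 0.872% in control fat. They took 0.160 to 0.393% in day 7 grafts. The highest control value was that of control 5, and the groups overlapped. In bulk tissue, fewer cells of a type and less RNA per cell cannot be told apart.

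**Figure D2:**
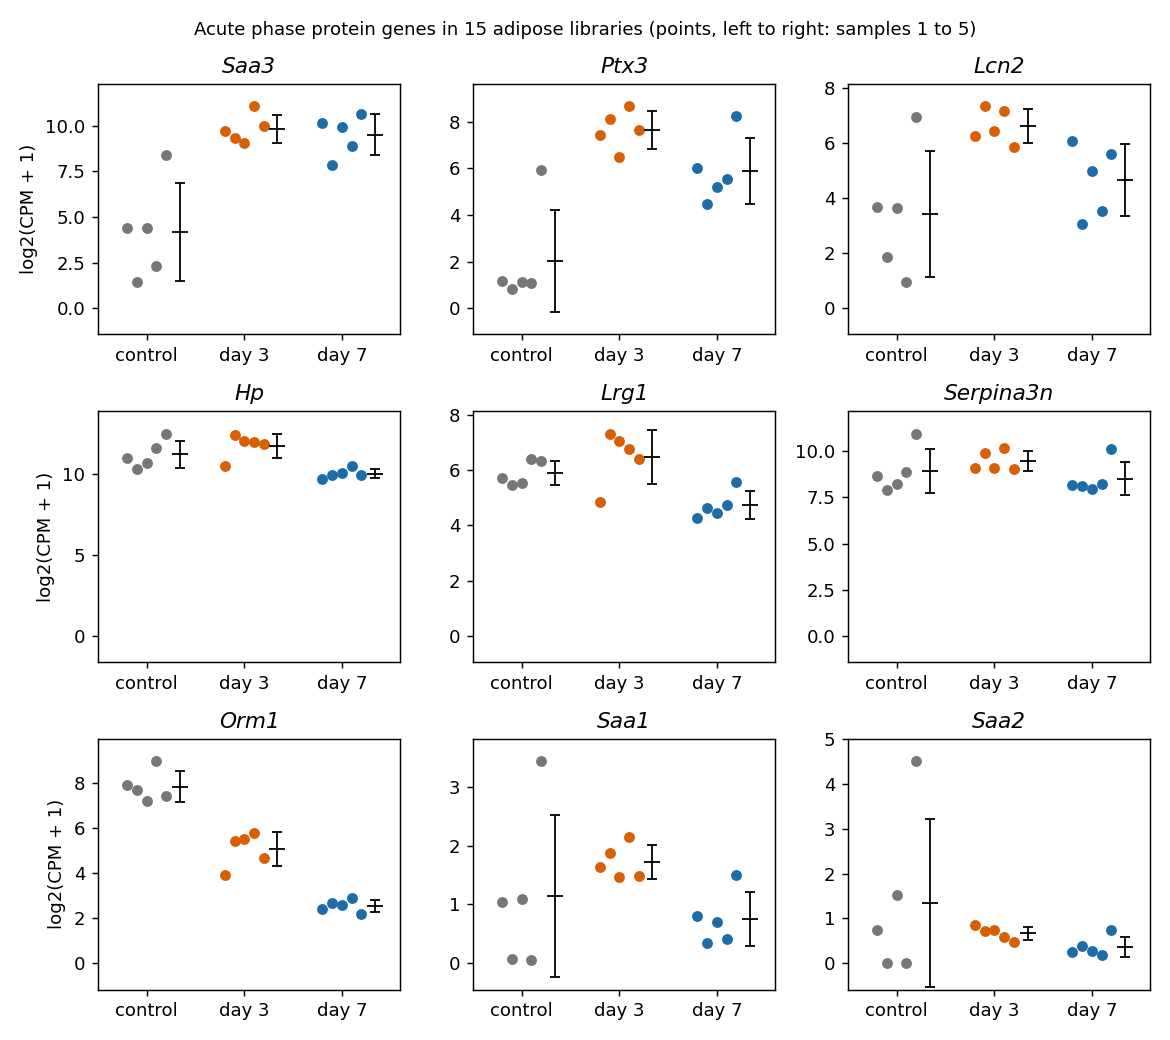
Each panel plots log2(CPM + 1) of 1 gene in control fat, day 3 grafts and day 7 grafts, with 1 point per sample and a bar for the mean ± SD (n = 5). Orm1 separates all 3 groups without overlap, whereas Saa3 and Ptx3 separate all grafts from controls 1 to 4.

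Saa3, which encodes the serum amyloid A made outside the liver in mice, was higher in grafts at both times. It had 842, 641, 527, 2155 and 993 CPM in day 3 grafts 1 to 5, against 19.8, 1.74, 20.2, 3.92 and 334 CPM in controls 1 to 5. In day 7 grafts 1 to 5 it had 1126, 232, 981, 475 and 1619 CPM. All day 3 grafts were above all controls, and 4 of the 5 day 7 grafts were, day 7 graft 2 lying below control 5. The fitted log2 difference from control was 5.80 ± 1.06 (SE) at day 3 and 5.48 ± 1.05 at day 7, and without control 5 it was 6.91 ± 0.76 and 6.59 ± 0.76. Saa3 made up 99.6 to 99.8% of the TPM of the 3 Saa genes in day 3 grafts, 99.8 to 99.9% in day 7 grafts and 89.3 to 99.8% in control fat.

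Saa1 and Saa2, which encode the serum amyloid A proteins that the liver releases into high-density lipoprotein, had few counts, under 100 in every library but control 5. Saa1 had 53, 75, 42, 95 and 47 counts in day 3 grafts 1 to 5, against 20, 1, 25, 1 and 206 counts in controls 1 to 5. In day 7 grafts it had 20, 8, 21, 7 and 49 counts. Saa2 had 20, 18, 16, 14 and 10 counts in day 3 grafts, against 13, 0, 41, 0 and 456 counts in controls, where a count of 0 allows up to 0.174 CPM in control 2 and 0.126 CPM in control 4. Saa2 in day 7 grafts had 5, 9, 7, 3 and 18 counts. For both genes the highest of all 15 libraries was control 5, and controls 2 and 4 held at most 1 count. The log2 difference of Saa1 was 1.98 ± 0.92 at day 3 and 0.09 ± 1.05 at day 7, and 3.00 ± 0.78 and 1.11 ± 0.85 without control 5. That of Saa2 was 0.40 ± 1.35 at day 3 and -0.69 ± 1.47 at day 7. Without control 5 it was 1.81 ± 0.99 at day 3 and turned to 0.72 ± 1.05 at day 7. Over the other settings the sign was the same for Saa2 in 20 of 25 at day 3 and in 22 of 24 at day 7, and for Saa1 in 20 of 26 at day 7.

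Ptx3, a long pentraxin that binds microbes and complement and is made by macrophages, stromal and endothelial cells, was close to absent from controls 1 to 4. It had 171, 276, 88.3, 409 and 198 CPM in day 3 grafts 1 to 5, against 1.26, 0.755, 1.18, 1.14 and 59.6 CPM in controls. In day 7 grafts it had 63.2, 20.9, 35.9, 45.5 and 300 CPM. Day 3 grafts were all above the controls, and day 7 graft 5 lay far above the other 4. The log2 difference was 6.35 ± 1.17 at day 3 and 4.56 ± 1.15 at day 7, and without control 5 it was 7.51 ± 1.35 and 5.71 ± 1.34. Without the 3 libraries that stood apart, day 7 graft 5 among them, it was 7.57 ± 0.84 and 5.11 ± 0.84.

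Lcn2 encodes a lipocalin that withholds iron from bacteria by binding their siderophores, and neutrophils, macrophages and adipocytes make it. It had 75.9, 160, 85.3, 141 and 56.6 CPM in day 3 grafts, against 11.8, 2.62, 11.5, 0.927 and 122 CPM in controls 1 to 5. In day 7 grafts it had 66.8, 7.24, 30.5, 10.5 and 47.7 CPM. Day 3 grafts were above controls 1 to 4 and day 7 grafts overlapped them. The log2 difference was 3.53 ± 0.98 at day 3 and 1.52 ± 0.99 at day 7, and 4.50 ± 0.95 and 2.50 ± 0.96 without control 5. Against control fat, the medians of summed neutrophil and macrophage markers were higher in grafts, as were those of Saa3, Ptx3 and Lcn2. From day 3 to day 7, the medians of Lcn2 (85.3 to 30.5 CPM) and Ptx3 (197.7 to 45.5 CPM) fell. Those of the neutrophil markers (267.4 to 364.5 CPM), the macrophage markers (7948 to 9905 CPM) and Saa3 (842.3 to 980.9 CPM) did not. The mean of Saa3 went the other way than its median (1032 to 886.7 CPM). Sample values of each of these genes and marker sums overlapped between the times. The summed level of 10 neutrophil markers was 78.2 to 459 CPM in day 3 grafts and 156 to 941 CPM in day 7 grafts against 19.8 to 187 CPM in control fat, and 5 of the 10 rose at each time while 1 fell at day 3. The share called (limma-voom, adjusted p under 0.05) was 60.0% at day 3 and 50.0% at day 7. Over all tested genes it was 60.4% and 60.7%. The granule gene Ngp was at 0 in some day 3 grafts and controls, Camp in some grafts and Ly6g in some controls. The summed level of 8 macrophage markers, none at 0, was 4396 to 10400 CPM in day 3 grafts and 8379 to 11900 CPM in day 7 grafts against 1199 to 3330 CPM in control fat, and all 8 rose at both times (limma-voom, adjusted p under 0.05). Over all tested genes, 30.1% rose at day 3 and 32.2% at day 7. The part of neutrophil and macrophage markers in the Saa3, Ptx3 and Lcn2 differences was not tested.

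The means of Hp, Lrg1 and Serpina3n were highest in day 3 grafts and lowest in day 7 grafts. For Serpina3n this order rested on control 5. Without it the control mean was 350 CPM, below the 447 CPM of day 7 grafts. Hp encodes haptoglobin, which binds free haemoglobin. Hp had 1422, 5254, 4063, 3881 and 3569 CPM in day 3 grafts 1 to 5, against 2001, 1262, 1634, 2999 and 5620 CPM in controls 1 to 5. Values in day 7 grafts were 826, 953, 1028, 1427 and 962 CPM. Day 3 graft 1 was the lowest of its group and overlapped day 7 grafts, and 4 of 5 day 7 grafts were below all controls. The log2 difference was 0.53 ± 0.39 at day 3 and -1.18 ± 0.37 at day 7. Without control 5 it was 0.83 ± 0.33 and -0.87 ± 0.32, and without the 3 libraries that stood apart 1.14 ± 0.27 and -0.85 ± 0.25.

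Lrg1 encodes a leucine-rich glycoprotein that, in mice, promotes blood vessel growth through TGF-beta receptors. It had 28.0, 160, 131, 109 and 84.6 CPM in day 3 grafts, against 51.9, 43.8, 45.7, 84.1 and 79.1 CPM in controls. At day 7, grafts 1 to 5 had 18.4, 24.0, 21.1, 25.7 and 46.6 CPM. Day 3 grafts 2 to 5 exceeded every control while graft 1 was below them all. The log2 difference was 0.59 ± 0.39 at day 3 and -1.20 ± 0.40 at day 7, and without the 3 libraries that stood apart it was 1.10 ± 0.23 and -1.31 ± 0.23.

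Serpina3n encodes a serine protease inhibitor of the mouse Serpina3 cluster that blocks granzyme B and neutrophil proteases. It had 536, 954, 534, 1142 and 523 CPM in day 3 grafts, against 398, 240, 299, 463 and 1984 CPM in controls. The 5 day 7 grafts had 292, 274, 244, 294 and 1131 CPM. Each group except day 3 held 1 library far above its other samples, control 5 and day 7 graft 5. The log2 difference was 0.53 ± 0.55 at day 3 and -0.39 ± 0.53 at day 7, and without control 5 it was 1.03 ± 0.41 and 0.11 ± 0.40, so the sign at day 7 turned. Without the 3 libraries that stood apart, day 7 graft 5 among them, it was 1.12 ± 0.27 and -0.30 ± 0.25.

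Orm1, which encodes an alpha-1-acid glycoprotein that carries drugs and lipids in plasma, was the only one of the 9 genes that was lower in every graft than in every control, as were 15.6% of all tested genes. It had 13.98, 42.2, 44.2, 54.7 and 24.7 CPM in day 3 grafts, against 238, 206, 145, 497 and 172 CPM in controls. Values in day 7 grafts were 4.27, 5.44, 5.10, 6.38 and 3.61 CPM. The 3 groups did not overlap, and control 5 was within the range of the other controls. The log2 difference was -2.81 ± 0.36 at day 3 and -5.54 ± 0.48 at day 7. Its nearest copies, Orm2 and Orm3, singled out after their values were seen, had 1.08 to 4.76 and 0.0762 to 0.504 CPM in day 3 grafts against 1.22 to 4.04 and 2.94 to 8.09 CPM in control fat. At day 7 Orm2 had 0.151 to 0.540 CPM and Orm3 at most 0.0377 CPM.

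Markers of adipocytes moved with Orm1. The summed level of 8 adipocyte markers, none at 0, was 1659 to 6288 CPM in day 3 grafts, against 10850 to 34230 CPM in control fat, and 1023 to 2332 CPM in day 7 grafts, and all 8 genes fell at both times (limma-voom, adjusted p under 0.05). Over all tested genes, 30.3% fell at day 3 and 28.4% at day 7. The part of adipocyte markers in the Orm1 difference was not tested. The summed level of 8 hepatocyte markers was 2.28 to 6.48 CPM in day 3 grafts, 1.32 to 1.86 CPM in day 7 grafts and 14.3 to 47.0 CPM in control fat, where Alb made up most of it. Cps1 was at 0 in all libraries, and 2 to 4 of the 8 were at 0 in each. Of the 3 hepatocyte markers with enough counts to be tested, 2 fell and 1 rose at each time (limma-voom, adjusted p under 0.05). The marker that rose was Ambp, with means of 0.936 CPM in day 3 grafts, 0.520 CPM in day 7 grafts and 0.00948 CPM in control fat.

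**Figure D3:**
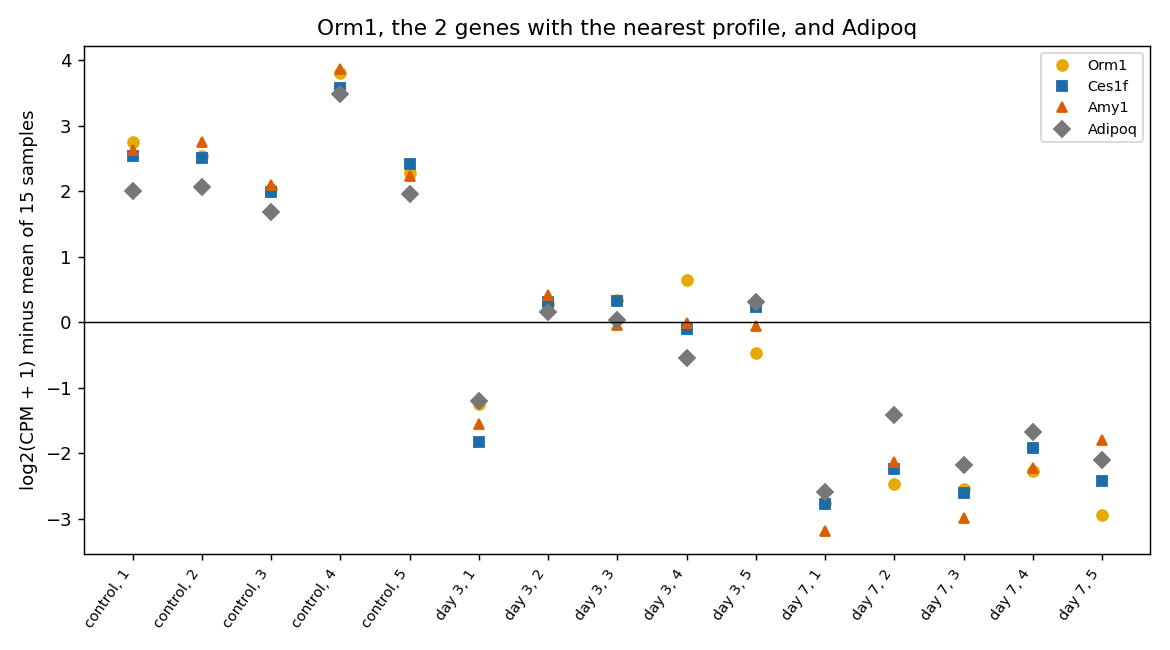
Points show log2(CPM + 1), minus the mean over the 15 samples, of Orm1, of Ces1f and Amy1, whose profiles were nearest to it, and of the adipocyte gene Adipoq in each library (control, day 3, day 7). All 4 genes were high in the controls, intermediate in day 3 grafts and low in day 7 grafts.

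The median log2 difference of the 9 genes was 0.59 at day 3 and -0.39 at day 7, against -0.02 and 0.03 over all tested genes. Calls below rest on limma-voom, a linear model of log counts, with the threshold for adjusted p set at 0.05. The gene lists below, like the marker lists above, were chosen with earlier results of these data known. Their counts and p-values are therefore given as a description. Against control fat, 60.4% of all tested genes were called at day 3 (30.1% higher and 30.3% lower) and 60.7% at day 7 (32.2% higher and 28.4% lower). Both comparisons share the 5 controls. On deposited TPM values, 6301 genes were called higher and 2967 lower at day 3 where the scaled counts gave 4832 and 4856, and 7396 and 2585 at day 7 where the scaled counts gave 5170 and 4566, with all genes shifted by 0.22 and 0.33 (log2).

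**Figure D4:**
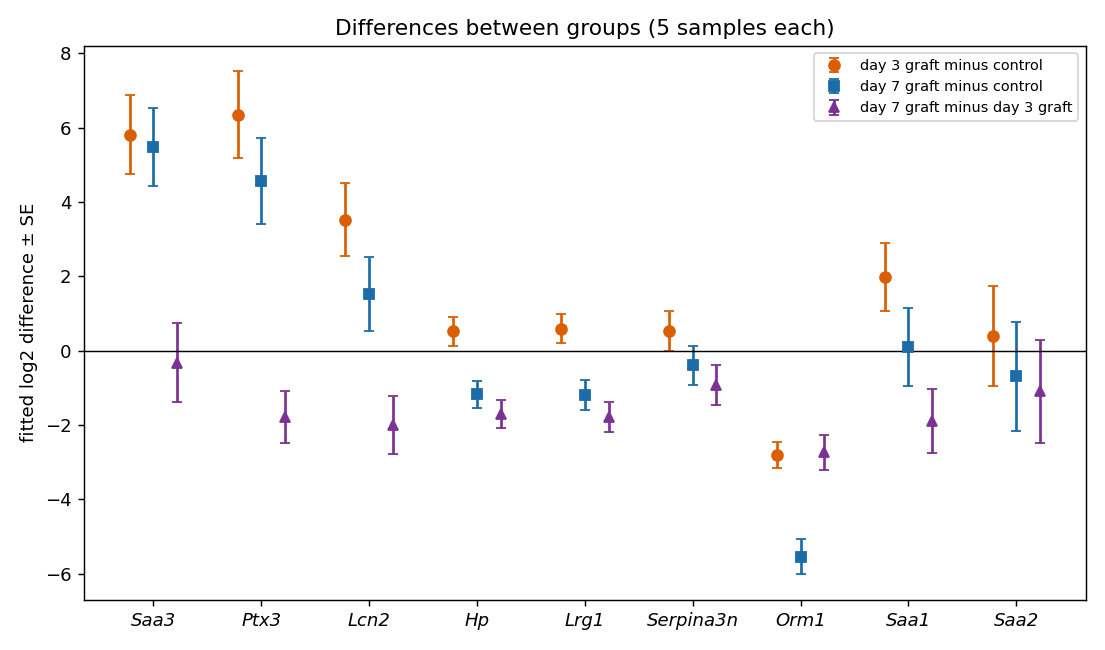
Points show the fitted log2 difference of each gene ± SE for day 3 grafts minus control, day 7 grafts minus control and day 7 grafts minus day 3 grafts (5 samples per group). All 9 day 7 minus day 3 values lie below 0, between -2.74 for Orm1 and -0.32 for Saa3.

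Between the graft times, 8 of the 9 genes had at least 4 of the 5 day 7 grafts below every day 3 graft, Saa3 being the exception, where 9.37% of all tested genes separated in that way. Since the 9 genes were chosen with these values in view, nothing is read from that count. The log2 difference of day 7 from day 3 grafts was -2.74 ± 0.47 for Orm1, -2.01 ± 0.77 for Lcn2, -1.89 ± 0.86 for Saa1 and -1.79 ± 0.69 for Ptx3. It was -1.78 ± 0.40 for Lrg1, -1.70 ± 0.38 for Hp, -1.09 ± 1.38 for Saa2, -0.92 ± 0.55 for Serpina3n and -0.32 ± 1.07 for Saa3. Without the 3 libraries that stood apart the 9 values lay between -2.93 for Orm1 and -0.64 for Saa3, with -1.42 ± 0.27 for Serpina3n and -2.45 ± 0.42 for Ptx3.

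The genes fell into different profiles. By the mean absolute difference between log2(CPM + 1) profiles centred over the 15 samples, the nearest pair among the 9 was Hp and Lrg1 (0.30). Among 10568 other genes, the nearest to Orm1 were Ces1f (0.26) and Amy1 (0.32), to Saa3 Timp1 (0.60) and Cthrc1 (0.68), and to Ptx3 Prg4 (0.58) and Ccl7 (0.70). The nearest to Hp were Mustn1 (0.38) and Steap4 (0.42), to Lrg1 Mustn1 (0.37) and Ltc4s (0.38), and to Serpina3n Thbd (0.39) and Fam124a (0.40). The nearest to Lcn2 were Ccl12 (0.74) and Socs3 (0.75), to Saa1 Sbno2 (0.45) and Myc (0.45), and to Saa2 Isyna1 (0.44) and Gramd3 (0.46). At the low levels of Saa1 and Saa2, log2(CPM + 1) varies little, so nearness says little for them. Control 5 held 21.62 CPM of Saa2, the other controls at most 1.856 CPM. For Isyna1 it held 40.11 CPM, the others 10.36 to 34.04 CPM. Control 5 was also the highest control for Timp1 (94.4 CPM, the others 1.69 to 4.30 CPM) and Prg4 (287 CPM, the others 2.95 to 19.1 CPM).

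Cytokine genes that switch on acute phase genes were either called higher in grafts or not called. Il17a and Il22 of this list had too few counts to be tested. Of 10 tested cytokine genes, 7 rose and none fell at day 3, with a median log2 difference of 2.41 (-0.02 over all genes), and 6 rose and none fell at day 7, with a median of 1.96 (0.03 over all genes). That is 70.0% of the list at day 3 and 60.0% at day 7, where 60.4% and 60.7% of all genes were called, in either direction. Il6 had 32.9 ± 22.1 CPM in day 3 grafts against 0.789 ± 1.31 CPM in control fat (SD, n = 5 each), a log2 difference of 6.11 ± 1.09 (limma-voom adjusted p = 0.000245), with no overlap. The mean at day 7 was 7.03 ± 2.20 CPM (4.12 ± 1.14, adjusted p = 0.0059). Il1b rose by 3.70 ± 1.16 at day 3 (adjusted p = 0.0127) and 3.74 ± 1.16 at day 7 (adjusted p = 0.012), with samples that overlapped those of control fat. Lif (2.55 ± 0.41, adjusted p = 0.000104) and Osm (2.27 ± 0.43, adjusted p = 0.000416), both of the interleukin 6 family, rose at day 3. At day 7 Lif (1.86 ± 0.43, adjusted p = 0.00163) and Osm (1.56 ± 0.45, adjusted p = 0.00774) rose too. Il33 rose at day 3 (1.93 ± 0.64, adjusted p = 0.0176) and at day 7 (2.06 ± 0.65, adjusted p = 0.0126), with overlap. Control 5 held 200.6 CPM of Il33, within the 93.74 to 520.3 CPM of day 7 grafts.

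**Figure D5:**
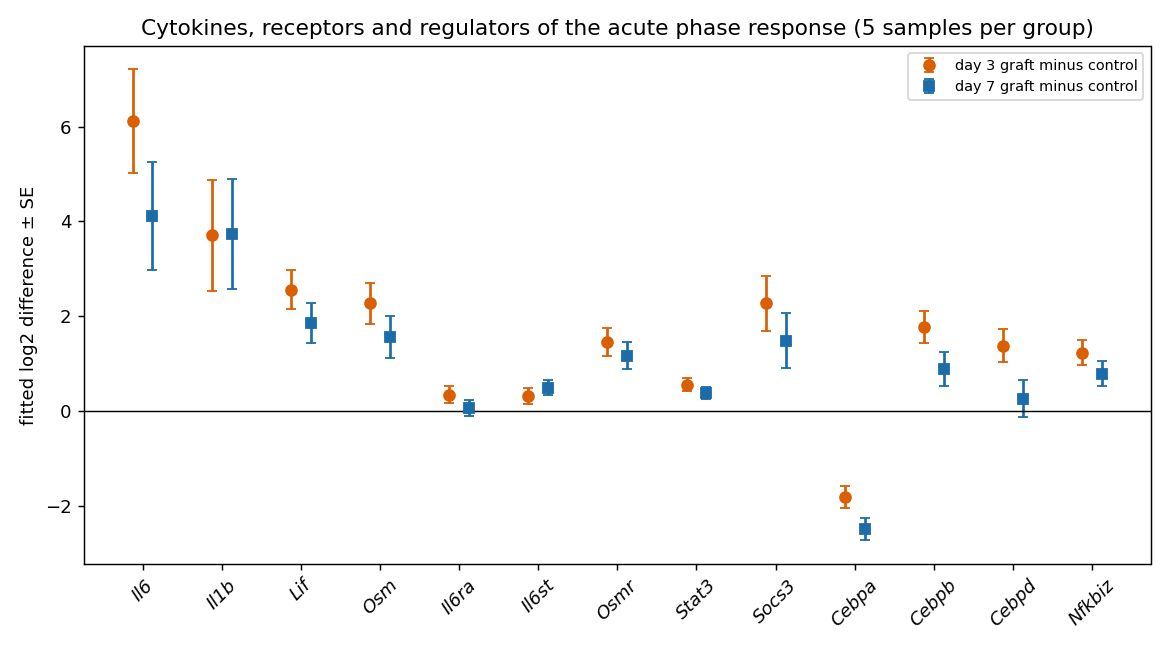
Points show the fitted log2 difference ± SE from control of 13 cytokines, receptors and regulators in day 3 and day 7 grafts (5 samples per group). Il6 is the largest at day 3, 6.11, and Cebpa is the only one below 0 at both times.

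Of 13 tested receptor and glucocorticoid genes, 6 rose and 1 fell at day 3 and 7 rose and 1 fell at day 7, with medians of 0.46 and 0.49. The share called was 53.8% at day 3 and 61.5% at day 7, near that of all genes (60.4% and 60.7%). Osmr, the oncostatin M receptor, rose by 1.45 ± 0.29 at day 3 (limma-voom adjusted p = 0.000613) and 1.17 ± 0.29 at day 7 (adjusted p = 0.00286). Il6ra was 0.34 ± 0.18 at day 3 (adjusted p = 0.103) and Il6st, the shared signalling chain, was 0.31 ± 0.16 at day 3 (adjusted p = 0.111) and rose by 0.49 ± 0.16 at day 7 (adjusted p = 0.0173). The interleukin 1 receptor genes Il1r1 (1.55 ± 0.32) and Il1rap (1.53 ± 0.32) and the TNF receptor gene Tnfrsf1b (1.60 ± 0.26) rose at day 3, with adjusted p of 0.000751, 0.000794 and 0.000128, and again at day 7. Il1r2, the decoy receptor of interleukin 1, named after its values were seen, was 0.03 ± 0.56 at day 3 (adjusted p = 0.966) and 0.20 ± 0.56 at day 7 (adjusted p = 0.768). Hsd11b1, which regenerates active glucocorticoid, had 88.6 ± 38.0 CPM in day 3 grafts against 363 ± 190 CPM in control fat (-2.01 ± 0.49, adjusted p = 0.00264), and fell at day 7 as well (-4.10 ± 0.51, adjusted p = 9.31e-06).

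Among 16 tested transcription factors and feedback genes, 7 rose and 1 fell at day 3 and 6 rose and 2 fell at day 7, with medians of 0.38 and 0.21. The share called was 50.0% at each time, below that of all genes (60.4% and 60.7%). Without control 1, control 2 or day 7 graft 5, or with only day 7 grafts and controls in the fit, 3 rose and 2 fell at day 7. Socs3, a feedback inhibitor of STAT3 signalling, had 131, 206, 131, 273 and 129 CPM in day 3 grafts, against 40.0, 24.1, 44.2, 7.67 and 147 CPM in controls (2.27 ± 0.59, limma-voom adjusted p = 0.00389). Cebpb (1.77 ± 0.34, adjusted p = 0.000472), Cebpd (1.38 ± 0.36, adjusted p = 0.00386), Nfkbiz (1.23 ± 0.26, adjusted p = 0.000905) and Stat3 (0.56 ± 0.13, adjusted p = 0.00248) also rose at day 3. At day 7 Nfkbiz (0.79 ± 0.26, adjusted p = 0.0164) and Stat3 (0.38 ± 0.13, adjusted p = 0.0235) rose, and Cebpd was 0.26 ± 0.39 (adjusted p = 0.571). Socs3 rose at day 7 by 1.49 ± 0.57 (adjusted p = 0.0352), a call lost without any of control 1, 2 or 4 or day 7 graft 1, 3 or 5 (0.92 to 1.53, adjusted p 0.0505 to 0.0822). Cebpb rose by 0.88 ± 0.36 at day 7 (adjusted p = 0.0465), a call lost on leaving out 9 of the 15 libraries in turn (0.60 to 0.91, adjusted p 0.0534 to 0.119). Cebpa, a factor of adipocyte differentiation, fell at day 3 (-1.82 ± 0.24, adjusted p = 1.83e-05) and at day 7 (-2.49 ± 0.24, adjusted p = 1.05e-06), with no overlap.

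Other acute phase genes did not all move one way. Of 17 tested genes, 8 rose and 4 fell at day 3 and 5 rose and 8 fell at day 7, with medians of 0.82 and 0.12. The share called was 70.6% at day 3 and 76.5% at day 7 (60.4% and 60.7% over all genes). Without the 3 libraries that stood apart, 10 rose and 2 fell at day 3 and 8 rose and 6 fell at day 7, so the majority at day 7 turned, as it did without control 5 alone (8 rose and 5 fell). Hmox1, which breaks down haem, rose by 4.60 ± 0.71 at day 3 (limma-voom adjusted p = 7.23e-05) and 4.91 ± 0.73 at day 7 (adjusted p = 4.54e-05). Il1rn, the interleukin 1 receptor antagonist, rose by 3.66 ± 0.57 at day 3 and 4.46 ± 0.57 at day 7 (adjusted p = 7.63e-05 and 1.32e-05), and Mt2, a metallothionein, rose by 3.97 ± 1.00 at day 3 (adjusted p = 0.00338). C3 had 1233 ± 417 CPM in day 3 grafts against 2617 ± 712 CPM in control fat (-1.13 ± 0.33, adjusted p = 0.00807). Cp, the gene of caeruloplasmin, fell at day 3 (-0.91 ± 0.31, adjusted p = 0.0206, and -0.79 with 0.054 without day 3 graft 1) and at day 7 (-1.81 ± 0.30, adjusted p = 0.000141). Itih4 (-5.34 ± 1.40, adjusted p = 0.00434) and Steap4, a metalloreductase of adipocytes (-1.59 ± 0.32, adjusted p = 0.000688), fell at day 7. Control 5 held 149.7 CPM of Itih4 (the other controls 5.055 to 30.62) and 296.2 CPM of Mt2 (the other controls 6.391 to 17.65).

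Of 6 tested genes of proteins whose levels in blood go down in the acute phase, 4 fell and 1 rose at day 3, and 3 fell and 2 rose at day 7, with medians of -0.99 and -0.97 (5 of 6 called at each time, 60.4% and 60.7% over all genes). Leaving out control 1, control 4, day 3 graft 1 or day 3 graft 4 left 2 fallen and 1 risen at day 3, and leaving out control 1, 2 or 3 or day 7 graft 5 left 3 fallen and none risen at day 7. Alb had 3.60 ± 1.62 CPM in day 3 grafts and 23.0 ± 13.5 CPM in control fat (-2.68 ± 0.43, limma-voom adjusted p = 0.000104), and 0.502 ± 0.145 CPM in day 7 grafts (-5.38 ± 0.65, adjusted p = 8.02e-06). Rbp4, a vitamin A carrier also made by adipocytes, fell at day 3 (-1.22 ± 0.45, adjusted p = 0.0284), a call lost without control 1, control 4 or day 3 graft 1 (-1.21 to -0.88, adjusted p 0.0503 to 0.0781), and at day 7 (-3.09 ± 0.48, adjusted p = 6.43e-05). Trf, the gene of transferrin, fell at day 3 (-1.05 ± 0.44, adjusted p = 0.0489), a call lost on leaving out 9 of the 15 libraries in turn (adjusted p up to 0.135), and at day 7 (-2.15 ± 0.42, adjusted p = 0.000498). Selenop rose by 0.84 ± 0.32 at day 7 (adjusted p = 0.0336), a call lost without control 1, 2 or 3 or day 7 graft 2 or 5 (0.59 to 0.80, adjusted p 0.066 to 0.097).

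Of 12 tested paralogs of the 9 genes, 1 rose and 4 fell at day 3 and 3 rose and 4 fell at day 7, and without the 3 libraries that stood apart 4 rose and 4 fell at day 3. The medians were 0.34 and -0.20, and 41.7% and 58.3% of the list were called (60.4% and 60.7% over all genes). In the Serpina3 cluster, Serpina3c had 26.4 ± 9.07 CPM in day 3 grafts against 165 ± 120 CPM in control fat (-2.37 ± 0.46, limma-voom adjusted p = 0.000474) and Serpina3k had 1.35 ± 0.794 CPM against 62.4 ± 90.4 CPM (-4.37 ± 1.504, adjusted p = 0.0209). At day 7 Serpina3c (-3.50 ± 0.51, adjusted p = 3.98e-05) and Serpina3k (-6.51 ± 2.11, adjusted p = 0.0152) fell too. Control 5 held 215.1 CPM of Serpina3k, the other controls 4.164 to 75.29 CPM. Serpina3g fell at day 3 (-2.23 ± 0.61, adjusted p = 0.00597) with 10.8 ± 6.69 CPM in grafts and 56.7 ± 32.8 CPM in control fat.

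Of 21 tested genes of receptors and partners of the 9 proteins, 10 rose and 4 fell at day 3 and 11 rose and 4 fell at day 7 (medians of 0.93 and 0.92). The share called was 66.7% at day 3 and 71.4% at day 7, where 60.4% and 60.7% of all genes were called. The formyl peptide receptor genes Fpr1 (5.12 ± 1.18, limma-voom adjusted p = 0.00182) and Fpr2 (3.50 ± 0.78, adjusted p = 0.00138) rose at day 3, and Fpr2 is the serum amyloid A receptor of the pair. Tnfaip6 (4.73 ± 0.54, adjusted p = 5.43e-06), a partner of Ptx3 in the matrix of the ovary, rose at day 3 too. Fpr1, Fpr2 and Tnfaip6 rose at day 7 by 5.06 ± 1.18, 3.37 ± 0.78 and 3.71 ± 0.54 (adjusted p = 0.00192, 0.00184 and 4.26e-05). Control 5 held 5.689 CPM of Fpr1 (the other controls 0.1162 to 0.4634) and 8.013 CPM of Fpr2 (the other controls 0.5229 to 0.9505). Selp (-1.90 ± 0.74, adjusted p = 0.0365) and Scarb1 (-0.51 ± 0.18, adjusted p = 0.0241) fell at day 3, each call lost without any of 3 libraries: day 3 graft 1, 4 or 5 for Selp and control 4, day 3 graft 1 or day 3 graft 5 for Scarb1 (adjusted p 0.0564 to 0.104 and 0.0533 to 0.0585). Cma1 (-1.25 ± 0.50, adjusted p = 0.04) and Fgf2 (-0.87 ± 0.36, adjusted p = 0.0481) fell at day 7, calls lost on leaving out 7 and 11 of the 15 libraries in turn (adjusted p up to 0.104 and 0.125).

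Between day 7 and day 3 grafts, 7 of the 95 tested genes of the 7 lists were called, all lower at day 7, where 4.88% of all tested genes were called (3.18% higher and 1.71% lower). These were Il6 (-1.99 ± 0.52, limma-voom adjusted p = 0.0417), Steap4 (-1.24 ± 0.32, adjusted p = 0.0411), Alb (-2.69 ± 0.72, adjusted p = 0.0447), Rbp4 (-1.87 ± 0.47, adjusted p = 0.0341) and Hsd11b1 (-2.10 ± 0.48, adjusted p = 0.0242), beside Orm2 and Orm3. Each of these 5 calls was lost on leaving out 6 to 10 of the 15 libraries in turn, with adjusted p up to 0.117, and the log2 difference then lay between -2.12 and -1.69 for Il6 and between -2.79 and -2.49 for Alb. Without the 3 libraries that stood apart, 27 of these genes were called, 22 lower and 5 higher.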

How the data were processed

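Libraries of 15 adipose samples were made with a stranded mRNA kit, per the labels' protocols. Software listed, without roles, in the submitters' processing notes was RSEM 1.3.1, STAR 2.7.1a and cutadapt 2.8, with the build mm10. Each sample has 3 columns in the matrix that the authors deposited, which hold estimated counts, RPKM and TPM, per the file headers. The estimated counts deposited carry digit separators, which were removed on reading, and every value was then a whole number. RPKM values deposited are scaled by the authors for length and depth, and served to check the order of the genes. TPM values deposited are scaled by the authors to the same total per sample, and were used for levels between genes and in 1 alternative.

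Genes entered the fit with at least 10 counts at the median library (0.389 CPM) in 5 samples and 15 counts in all. Scaling factors were trimmed means of M-values, and 16051 genes of all 15 samples were fitted with limma-voom (limma 3.58.1, R 4.3.3). A gene was called at a Benjamini-Hochberg adjusted p under 0.05 over all tested genes. On simulated counts the fit recovered 96.9% of 4-fold, 25.4% of 2-fold and 5.97% of 1.5-fold changes among 15868 genes laid out as day 3 against control. The simulation gave every gene the same spread, changed few genes and held no library that stood apart. These shares therefore need not hold for the real counts. Floors use 3 counts, and cover counting error only.

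The 9 genes, the 7 lists (118 genes, 95 tested) and the 11 marker lists were chosen with earlier results of these data known. Named list genes are, per list and comparison, up to 3 called genes with the largest change and at least 10 CPM in a group in the majority direction and up to 2 in the other, plus 11 regulators named always and the 2 nearest genes of each of the 9.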

Additional observations from a re-analysis of the deposited data

Results flagged for a closer look

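Of 27 sets of 5 values (9 genes in 3 groups), 2 held a sample farther from the others than Dixon's 95% critical value of 0.71 allows, and chance alone marks about 1 in 20 such sets. Ptx3 in control 5 was 59.6 CPM, the other controls holding 0.755 to 1.26 CPM, and the gap to the next sample was 0.929 of the range on the log2(CPM + 1) scale. Serpina3n in day 7 graft 5 was 1131 CPM, the other day 7 grafts holding 244 to 294 CPM, with a gap of 0.877 of the range. No cause was tested for either.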

How the results depend on the processing

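The alternatives changed the scaling, the filter on low counts, the model, the samples in the fit and the replicate block, and left out each sample in turn, and 1 added after seeing the data left out the 3 libraries that stood apart. No result turned direction where it was called. The counts of day 7 against day 3 grafts moved by over 1.5 times, as did 4 counts over the lists against control: paralogs at day 3 (5 called, 10 with sample quality weights and 8 without the 3 libraries), genes of proteins that go down at both times (5 called, 3 without 1 of 4 samples) and transcription factors at day 7 (8 called, 5 without 1 of 3 samples or with only the 2 groups in the fit). The 784 genes called were 3668 with sample quality weights, 1395 with only the 2 groups in the fit, 1756 without the 3 libraries and 321 to 1525 with 1 sample left out. The 7 other pathway genes called were 38, 17, 27 and 1 to 18. Without 1 sample, day 3 against control gave 8733 to 10025 genes and day 7 against control 8787 to 10099. With the replicate block, 659 genes were called between day 7 and day 3 grafts and 9726 and 9724 at day 3 and day 7 against control. Same-numbered samples deviated together (r over 0.1) in 4 of 15 pairs, with r from -0.193 to 0.337, so the numbers were not taken to pair the samples. The planned edgeR and DESeq2 alternatives were not run, because the columns, which hold digit separators, were not classed as plain counts. Depth limits Saa1 and Saa2, whose counts were under 100 in all libraries but control 5. The causes of the moves were not tested.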
